A study of Mus musculus with 17 samples.

Results

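Mouse blastocysts were compared with mouse 8-cell embryos, the last step of a series of preimplantation stages measured on Affymetrix MG-U74Av2 arrays. The members of the comparison were the 4 arrays titled 8-Cell and the 3 arrays titled Blastocyst, 7 of the 17 arrays in the series. The other 10 arrays held oocytes (4), 1-cell embryos (3) and 2-cell embryos (3), and they entered the statistical fit only through the shared estimate of the spread. All samples were labelled as total RNA of unmanipulated stages amplified by 2 rounds of in vitro transcription, with no treatment, genotype or strain named. The labels did not say how many embryos were pooled, whether they had been flushed or cultured, or whether the arrays of a stage came from separate collections, so a p-value here sets a difference against the scatter of these arrays, and that scatter may be technical rather than biological.

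As background, the 8-cell embryo flattens its cells against one another in compaction and gives each an outer, apical face and an inner, basal face. The outer cells then become trophectoderm, an epithelium sealed by tight junctions that pumps sodium and water inward to open the blastocyst cavity and that later forms the placenta. The cells kept inside form the inner cell mass, which holds the epiblast, the source of the fetus, and the primitive endoderm, which lines the cavity and secretes a basement membrane. Over the same interval the embryo turns from pyruvate and lactate towards glucose as its fuel.

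Each value below is a probe set's signal, a brightness on a linear scale that had been scaled within each array before deposit, so that a signal says how much of the labelled RNA of that array a transcript made up and not how many molecules an embryo held. Signals are given in the order of array 1 to 4 for 8-cell embryos and 1 to 3 for blastocysts. A difference is the mean of log2(signal + 11) in blastocysts minus that in 8-cell embryos, with its standard error, and its p-value comes from one limma fit over all 12422 probe sets that are not controls, adjusted by Benjamini-Hochberg. Because 11 is added first, the difference understates the change of dim genes. A gene was called higher or lower where the adjusted p was below 0.05, and 1 probe set stood for each of 8251 genes.

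The 2 stages were well separated. Pearson correlations of the log2 values were 0.950 to 0.961 among the 8-cell arrays, 0.969 to 0.976 among the blastocyst arrays and 0.864 to 0.909 between the stages. One library, 8-cell array 2, carried strong signals of oviduct products, and single 8-cell arrays also lay apart for other genes. Ovgp1, the oviduct glycoprotein, read 107, 6212, 114 and 43.1 on the 8-cell arrays and 43.0, 49.1 and 24.4 on the blastocyst arrays. Ltf, lactoferrin, measured 11.4, 828, 10.4 and 6 in 8-cell embryos and 2.3, 8.2 and 2.6 in blastocysts. Ltf, like Krt19, Krt20, Cldn1, Cldn4, Cldn5, Cldn7 and Cldn8 below, was named after its values had been seen. The summed signal of the 19 measured oviduct and uterus markers ran from 727 to 8029 in 8-cell arrays, with array 2 at the top, and from 762 to 1016 in blastocyst arrays. Without that array 1306 genes were called higher and 1146 lower, against 1372 and 1281 with it. The arrays also differed in their controls: the 9 hybridisation spikes, bacterial RNAs added in a fixed amount, were on average 1.175 lower in blastocysts on the log2 scale (range -1.48 to -1.06). The ratio of the 3′ to the 5′ control signal was 3.48 to 4.24 for Actb in 8-cell arrays and 1.93 to 2.37 in blastocyst arrays, and 1.18 to 3.26 against 5.27 to 7.52 for Gapdh. The part of these differences in the results was not tested. The labels gave no batch or date.

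**Figure D1:**
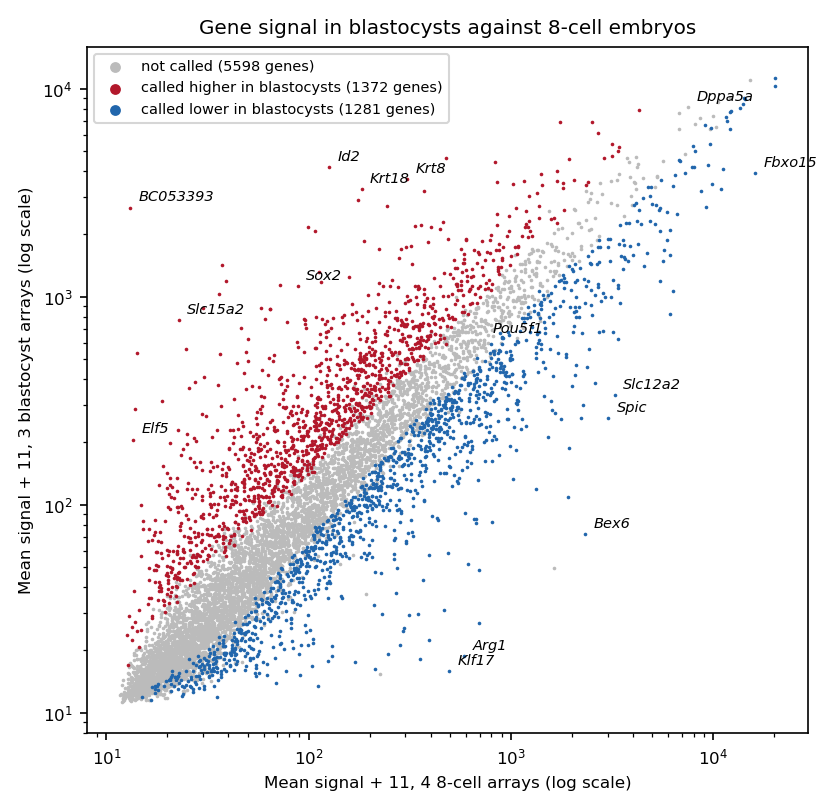
Mean signal plus 11 of each of 8251 genes on the 4 8-cell arrays (x axis, log scale) and on the 3 blastocyst arrays (y axis, log scale); red points were called higher in blastocysts (1372 genes), blue points lower (1281 genes) and grey points were not called (5598 genes). With the arrays scaled to the spikes instead, 3715 genes were called higher and 131 lower.

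Nearly a balanced number of transcripts moved each way between the stages. Of the 12422 probe sets, 3573 were called (28.8%), 1770 higher (14.2%) and 1803 lower (14.5%), and the median difference over all of them was -0.14. Of the 8251 genes, 2653 were called (32.2%), 1372 higher (16.6%) and 1281 lower (15.5%), with 852 of the higher and 585 of the lower changing at least 2-fold and a median difference of -0.12. The signals of the 4 8-cell and 3 blastocyst arrays did not overlap for 3009 genes (36.5%), which included 2391 of the called genes, and 2314 genes lay at or below 41.1, the median of all values in the table, on all 7 arrays. These shares are the background against which every gene group is read below. Directions are relative to the mean signal of an array: scaling to the spikes moved the median of all genes by 0.83 to 0.71, so a group that fell here fell relative to the other transcripts. Under that scaling 1503 of the 2653 calls were made with the same sign and 9 with the opposite sign.

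The 15 largest rises included genes at or near the floor of the array at the 8-cell stage and others with a clear 8-cell signal. BC053393, a gene known only by its clone name, had signals of 1.4, 4.2, 0.8 and 1.8 at the 8-cell stage and 1881, 3039.7 and 3081 in blastocysts, a difference of 7.65 ± 0.24 (SE, adjusted p = 2.70e-14). Id2, an inhibitor of basic helix-loop-helix factors and a marker of outer cells, read 44.2, 72.7, 309.8 and 35.3 on the 8-cell arrays and 3943, 5344 and 3262 on the blastocyst arrays. Its 8-cell values were spread widely, with array 3 the highest (5.50 ± 0.42, adjusted p = 5.85e-09). Only called genes without overlap between the stages were considered for the 15. Pdzk1, a scaffold protein of apical transporters, measured 3.8, 3.3, 2.5 and 3.3 in 8-cell embryos and 409, 478 and 688 in blastocysts. Slc15a2, a peptide transporter, had signals of 9, 21.8, 9.6 and 6.7 at the 8-cell stage and 750.2, 896 and 629.5 in blastocysts, and its difference was 5.11 ± 0.30. Adh1, an alcohol dehydrogenase that oxidises retinol, read 23.1, 13.3, 55.1 and 12.9 on the 8-cell arrays and 599, 2222 and 1383 on the blastocyst arrays, with blastocyst array 1 well below the others. Lgals1, a galactoside-binding lectin, measured 60.2, 79.0, 163 and 52.6 in 8-cell embryos and 2054, 2728 and 1651 in blastocysts. The other genes among the 15 largest rises were Lcp1, Tspan8, Prxl2a, Tmprss2, Tmsb4x, Ndrg1, Entpd1, Krt18 and Dsc2, with differences from 4.10 to 5.03, and several of them are membrane or cytoskeletal proteins described with their groups below.

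The 15 largest falls included genes that came close to the floor in blastocysts and others that kept a clear signal there. Bex6 had signals of 2858, 2281, 2074 and 2067 at the 8-cell stage and 76.3, 49.1 and 58.0 in blastocysts, a difference of -5.02 ± 0.17 (SE, adjusted p = 1.06e-13). Arg1, arginase, which turns arginine into ornithine, read 609.6, 382, 622 and 685 on the 8-cell arrays and 13.9, 2.2 and 7.2 on the blastocyst arrays. Klf17, a Krüppel-like zinc finger factor first found in germ cells, measured 455, 430.1, 332 and 711 in 8-cell embryos and 2.2, 1.5 and 11 in blastocysts, a difference of -4.95 ± 0.21 (SE, adjusted p = 2.08e-12). The highest blastocyst value of each gene lay far below its lowest 8-cell value. Ddit4, an inhibitor of mTOR signalling, had signals of 1839, 2261, 1485 and 2048 at the 8-cell stage and 92.9, 127 and 72.5 in blastocysts. Spic, an Ets-family factor, read 3308, 3108, 3081 and 2574 on the 8-cell arrays and 287, 228 and 233 on the blastocyst arrays (-3.54 ± 0.26). Foxa1, a forkhead factor of endodermal tissues, measured 468, 428, 360.0 and 556 in 8-cell embryos and 28.1, 15.5 and 17.3 in blastocysts. The remaining 9 of the 15 largest falls were Tspan4, Tlcd4, Dmrtb1, A530040E14Rik, Ptpn22, Hcrt, Omt2b, Nin and Efhd1, with differences from -4.76 to -3.57. Every gene of the 30 kept its direction in each alternative processing, scaling to the spikes included. The 30 genes were taken only from called genes whose stages did not overlap. Their lack of overlap, here and below, follows from that choice. Genes of the groups below were mostly named as the largest called members of a list. Of the 2653 called genes, 2391 did not overlap between the stages, beside 36.5% of all genes. Lack of overlap in those groups therefore follows largely from the naming as well.

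The sequences upstream of 5 of these genes are printed because the genes changed most or mark a lineage: 3 that rose in the outer cells' programme (Krt18, Krt8 and Elf5), the transporter Slc15a2 and the falling factor Klf17. Each line holds the 250 bases before the gene's start as RefSeq gives it for GRCm38.p6, read in the gene's direction. Capitals mark the letters of the words searched for on both strands: GGAATG, the core bound by TEAD factors, AGATAA, bound by GATA factors, GGGCGG, bound by Sp and Klf factors, and TATAAA, the TATA box. No 2 of the marked words overlap. Krt18 lies on the forward strand (chr15:102027966-102028215), Krt8 on the reverse strand (chr15:102004343-102004592), Elf5, at one of 2 listed starts, on the forward strand (chr2:103411848-103412097), Slc15a2 on the reverse strand (chr16:36784963-36785212) and Klf17 on the reverse strand (chr4:117765667-117765916). The printed Elf5 start was picked through the word search itself, as the other start held no more of the 4 words. The other start is not shown.
Krt18: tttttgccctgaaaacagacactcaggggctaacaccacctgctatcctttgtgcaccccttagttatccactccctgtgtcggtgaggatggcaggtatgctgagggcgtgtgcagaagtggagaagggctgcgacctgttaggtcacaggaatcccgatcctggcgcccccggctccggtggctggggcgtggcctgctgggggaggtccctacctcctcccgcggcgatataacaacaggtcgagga
Krt8: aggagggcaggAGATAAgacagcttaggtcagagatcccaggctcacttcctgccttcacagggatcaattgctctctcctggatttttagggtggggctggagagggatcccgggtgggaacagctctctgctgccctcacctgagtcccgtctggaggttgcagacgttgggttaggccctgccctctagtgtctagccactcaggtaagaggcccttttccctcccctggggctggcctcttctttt
Elf5: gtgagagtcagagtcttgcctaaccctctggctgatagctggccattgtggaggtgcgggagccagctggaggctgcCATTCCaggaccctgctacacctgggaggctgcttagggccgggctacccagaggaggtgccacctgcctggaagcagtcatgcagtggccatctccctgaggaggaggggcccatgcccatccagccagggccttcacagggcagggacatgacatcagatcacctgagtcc
Slc15a2: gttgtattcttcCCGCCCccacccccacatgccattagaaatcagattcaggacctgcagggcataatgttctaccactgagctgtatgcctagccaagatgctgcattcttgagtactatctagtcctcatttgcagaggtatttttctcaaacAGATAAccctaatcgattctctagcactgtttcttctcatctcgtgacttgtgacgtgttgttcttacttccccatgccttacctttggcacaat
Klf17: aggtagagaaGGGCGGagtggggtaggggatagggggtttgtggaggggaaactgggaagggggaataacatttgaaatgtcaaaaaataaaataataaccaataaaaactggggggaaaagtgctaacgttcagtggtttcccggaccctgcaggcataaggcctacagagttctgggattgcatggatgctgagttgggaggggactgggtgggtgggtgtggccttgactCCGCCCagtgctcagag
Krt8 held the GATA word 239 bases before its start, Elf5 the TEAD word on the opposite strand at 173, and Slc15a2 the GATA word at 95 and the Sp and Klf word on the opposite strand at 238. Klf17 held the Sp and Klf word at 240 and, on the opposite strand, at 17, and the Krt18 stretch held none of the 4 words. Over the 6572 genes with a listed promoter, the TEAD word stood upstream of 11.9% of the genes called higher, 14.5% of those called lower and 13.4% of all measured, beside 12.6% of all 32851 promoters in the table. The GATA word stood upstream of 6.04% of higher, 6.64% of lower and 7.99% of all measured genes (9.99% of all promoters). GGGCGG was found at 68.7% of higher, 62.9% of lower and 58.9% of all measured genes (32.7% of all promoters), and TATAAA at 6.94%, 8.95% and 10.9% (12.4% of all promoters). A gene was counted where any of its listed starts held the word, whereas the 32851 promoters were counted singly. The shares of genes and of all promoters are therefore not like for like. These are descriptions of letters, and a match is no sign of binding.

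Transcription factors of the trophectoderm rose more often than they fell. Of 26 measured, 11 were called higher, 5 lower and 10 neither, with a median difference of 0.53 beside -0.12 over all genes. Elf5, an Ets factor that keeps trophoblast stem cells in their state, had signals of 6, 1.1, 1.4 and 1.9 at the 8-cell stage and 112, 284 and 187 in blastocysts, a difference of 3.84 ± 0.24 (SE, adjusted p = 4.27e-10). Eomes, a T-box factor needed for the trophoblast, read 33.7, 44.9, 27.5 and 27.1 on the 8-cell arrays and 390.5, 567 and 443 on the blastocyst arrays, and a second probe set rose by 3.93. Gata3, which acts with Cdx2 in the outer cells, measured 84.5, 151, 144 and 104 in 8-cell embryos and 681, 928 and 723 in blastocysts (2.60 ± 0.22, adjusted p = 2.22e-08). Klf6, a zinc finger factor, and Tfap2a, an AP-2 factor, were also higher, by 3.36 ± 0.39 and 2.16 ± 0.46. Cdx2, the defining factor of the trophectoderm, had signals of 13.4, 15.8, 2.4 and 2.6 at the 8-cell stage and 3.8, 15.4 and 5 in blastocysts. All 7 values lay below 41.1, the median of the table, and the gene was not called, so no direction can be read from this probe set. The 5 lower members were Sox15, Esrrb, Tead4, Wwtr1 and Tfap2c. Tead4, which binds DNA for the Hippo pathway's coactivators, read 620.5, 559, 427 and 554 on the 8-cell arrays and 326, 339.5 and 277 on the blastocyst arrays (-0.75 ± 0.14, adjusted p = 0.000429), and 2 of its 3 other probe sets were also called lower. Tfap2c, another AP-2 factor, measured 1719.5, 2054, 2078 and 2242 in 8-cell embryos and 1151, 1200.1 and 1609.7 in blastocysts (-0.62 ± 0.16). Wwtr1, a relative of Yap1, had a difference of -0.67 ± 0.22, and the differences of Tead4, Tfap2c and Wwtr1 turned positive when the arrays were scaled to the spikes. Esrrb, an orphan nuclear receptor, was dim on all 7 arrays (-1.01 ± 0.26). Sox15 fell most, from 339.7, 444, 375 and 376 to 55.5, 48.3 and 35.1. Yap1, the coactivator itself, read 714, 682, 716 and 683 and then 618, 814 and 695 and was not called. RNA of the whole embryo was measured, so for a gene of 1 lineage more cells of that lineage and more RNA per cell cannot be told apart. Array by array, 8-cell and blastocyst signals overlapped for Cdx2 and Yap1, and were apart for the rest.

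**Figure D2:**
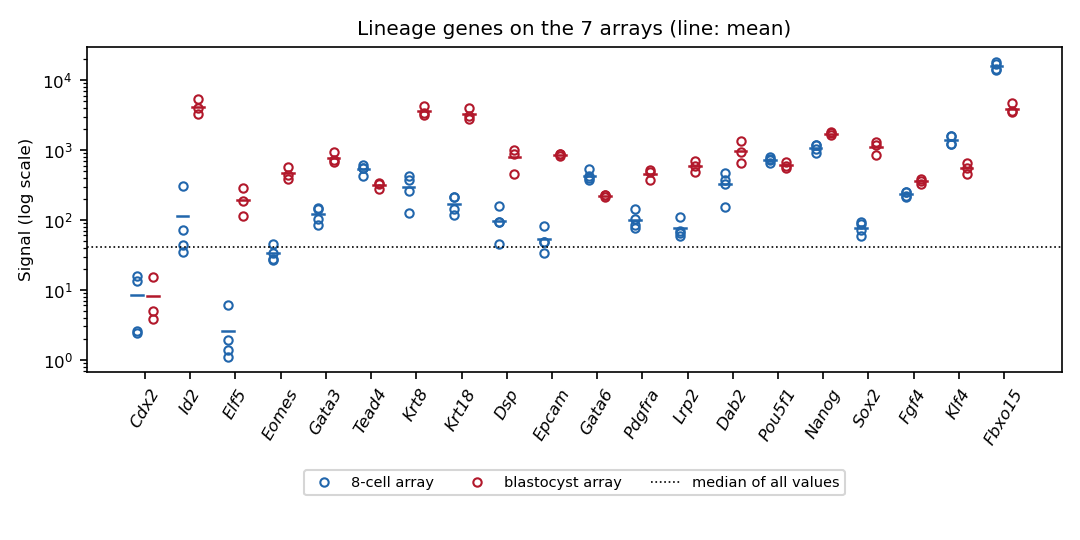
Signal (y axis, log scale) of 20 lineage genes on each of the 4 8-cell arrays (blue circles) and 3 blastocyst arrays (red circles), with a line at each mean and a dotted line at 41.1, the median of all values in the table. Elf5, Krt8, Krt18, Epcam, Lrp2 and Sox2 have blastocyst values above every 8-cell value, Tead4, Gata6, Klf4 and Fbxo15 have blastocyst values below every 8-cell value, and Cdx2 lies under the dotted line on all 7 arrays.

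Of 19 products of trophoblast cells 8 were called higher and 1 lower, with a median of 0.39. The summed signal of the list was 1689 to 1880.1 on the 8-cell arrays and 5304 to 7089.9 on the blastocyst arrays. Fabp3, a fatty acid binding protein, had signals of 139.7, 135, 241 and 143 at the 8-cell stage and 2739, 3792 and 2184 in blastocysts, a difference of 4.06 ± 0.38 (SE, adjusted p = 7.46e-08). Plac1, a placental surface protein, read 87.9, 45.3, 71.3 and 42.9 on the 8-cell arrays and 249, 555 and 311 on the blastocyst arrays. Slc2a1, the glucose transporter Glut1, measured 7.1, 6.5, 7.6 and 4.3 in 8-cell embryos and 45.3, 93.8 and 49.7 in blastocysts. Fgfr2, a receptor by which trophectoderm answers Fgf4 from the inner cells, had signals of 243, 329, 339.6 and 492 at the 8-cell stage and 730.3, 778 and 930.2 in blastocysts. Fabp5 and Lgals3 were higher by 1.49 and 1.70. Cyp11a1, a steroid-making enzyme, was the member called lower, with overlapping arrays and a difference of -1.11 ± 0.39, and its call held only without 8-cell array 2 or 4 when single arrays were left out. For Fabp3, Plac1, Slc2a1 and Fgfr2 the stages did not overlap.

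Keratins 8, 18 and 7 of simple epithelia rose. Krt18 read 116, 214, 143 and 214 on the 8-cell arrays and 2788, 3939.8 and 3108 on the blastocyst arrays, a difference of 4.20 ± 0.23 (SE, adjusted p = 5.52e-11). Its partner Krt8 measured 125, 375, 262 and 421 in 8-cell embryos and 3231, 3404 and 4331 in blastocysts, a difference of 3.69 ± 0.41 (SE, adjusted p = 7.37e-07). Krt7 had signals of 11.6, 27.8, 18.6 and 5.8 at the 8-cell stage and 124, 185 and 140.4 in blastocysts, from a mean of 7 at the 2-cell stage, where Krt8 and Krt18 had means of 30.8 and 33.4. Of the 12 intermediate filament genes measured 5 were higher and none lower (median 0.56). The other 2 were the lamins Lmna (1.79 ± 0.20) and Lmnb1 (0.60 ± 0.20). Krt19 and Krt20, further keratins of simple epithelia, were not called, with differences of -0.36 ± 0.33 and -0.60 ± 0.27. Vim, the filament of mesenchymal cells, read 32.7, 47.9, 24.5 and 14.1 on the 8-cell arrays and 41.1, 25.2 and 24.8 on the blastocyst arrays and was not called. Of the genes with values by array, Vim had overlapping stages and the others did not.

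Desmosomes, the junctions that anchor keratin at the cell border, had several large rises. Dsc2, a desmosomal cadherin, measured 10.4, 5.7, 13.5 and 1.5 in 8-cell embryos and 336, 315 and 259 in blastocysts, a difference of 4.10 ± 0.26 (SE, adjusted p = 3.59e-10). Its partner Dsg2 had signals of 19.8, 22.8, 71.1 and 37.1 at the 8-cell stage and 558, 673 and 368 in blastocysts. Dsp, desmoplakin, which ties the junction to keratin, read 45.2, 93.2, 92.2 and 158 on the 8-cell arrays and 889, 462 and 1017 on the blastocyst arrays, with array 2 the lowest blastocyst. Pkp2 and Pkp4, plakophilins of the junction's plaque, were higher by 2.17 and 1.31. Of 12 desmosome genes 5 were higher and 1 lower, the latter being Dsc3, which was dim on all 7 arrays and kept its call without 8-cell array 3 or 4 only (2 were lower without array 4; median 0.65). Perp, a desmosomal tetraspan protein, had a difference of 1.00 ± 0.37 and was not called. No overlap between the stages was seen for Dsc2, Dsg2 and Dsp.

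Of 26 genes of tight junctions and apical polarity, 10 were higher and 2 lower, with a median of 0.26. The lower count was 1 when any array but blastocyst array 1 was left out. Of 8 claudins, the strand-forming proteins of the tight junction, Cldn3, Cldn4, Cldn6 and Cldn7 were higher, Cldn2 was lower at signals near the floor (-0.40 ± 0.15), and Cldn1, Cldn5 and Cldn8 were not called, with differences of -0.31, -0.32 and -0.68. Cldn3 measured 29.7, 79.0, 30.6 and 44.7 in 8-cell embryos and 147, 325 and 136 in blastocysts. Cldn6 had signals of 58.9, 55.9, 28.3 and 52.5 at the 8-cell stage and 209, 178 and 156 in blastocysts. Ezr, ezrin, which links actin to the apical membrane, read 31.2, 77.6, 66.7 and 70.4 on the 8-cell arrays and 426, 385 and 380.3 on the blastocyst arrays. Its relative Msn, moesin, measured 27.0, 45.3, 67.4 and 60.1 in 8-cell embryos and 587, 719 and 995 in blastocysts (3.69 ± 0.26, adjusted p = 1.93e-09). Pard3, a polarity scaffold, had signals of 29.7, 53.7, 36.9 and 23.7 at the 8-cell stage and 260.4, 330.5 and 126 in blastocysts. In contrast, Crb3, an apical polarity protein, fell from 495, 418, 562 and 468 to 246, 264 and 235 (-0.93 ± 0.16), and that sign turned when arrays were scaled to the spikes. Tjp1, the scaffold ZO-1, read 779, 853, 816 and 1147 on the 8-cell arrays and 756, 622 and 900.0 on the blastocyst arrays and did not pass the test. The polarity kinase Mark2 differed by -0.46 ± 0.21 at its brightest probe set and was not called. A dimmer Mark2 probe set was called lower (-0.74) and another was not called (-0.30). Among the genes given array by array, the signals of the 2 stages overlapped for Tjp1 and for no other.

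Of 13 adherens junction genes 8 were higher and none lower, and the median was 0.60. Epcam, an epithelial adhesion molecule, measured 33.8, 82.4, 49.0 and 48.5 in 8-cell embryos and 869, 886 and 829.5 in blastocysts, a difference of 3.81 ± 0.32 (SE, adjusted p = 1.85e-08). Vcl, vinculin, which anchors actin at junctions, had signals of 128, 174, 191 and 182 at the 8-cell stage and 588, 641 and 623 in blastocysts. The catenins Ctnnb1 and Ctnna1, which couple cadherin to actin, were higher, the first by 0.97 ± 0.15 and the second by 0.92 ± 0.18. Cdh1, E-cadherin, the cadherin of compaction, read 202, 168, 114 and 133 on the 8-cell arrays and 166, 179 and 101 on the blastocyst arrays. It was not called (-0.05 ± 0.20, adjusted p = 0.874). Of 9 connexins only Gjb5 was higher (2.48 ± 0.21), Gja5 was lower (-0.78 ± 0.23, positive under spike scaling and not called without 8-cell array 1 or blastocyst array 1). Gja1, the connexin of compacting cells, measured 7030.2, 8026, 7508 and 6513 in 8-cell embryos and 5599, 4864 and 4079.6 in blastocysts and was not called. Of the genes with values by array, Cdh1 had overlapping stages and the others did not.

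The transporters that open the cavity were called in both directions, at shares not far from those of all genes. Of 14 measured, 3 were higher and 3 lower (21.4% each, beside 16.6% and 15.5% of all genes), with 8 not called (median -0.28). The higher count was 1 without 8-cell array 3, without blastocyst array 1 and without blastocyst array 2, and also in a fit of the 7 arrays alone. Atp1b1, the beta subunit of the sodium pump, had signals of 31.7, 45.9, 38.6 and 59.5 at the 8-cell stage and 96.5, 71.2 and 70.9 in blastocysts (0.73 ± 0.26, adjusted p = 0.0366), while Atp1b3, another beta subunit, fell from 3163, 2931, 3415 and 4783 to 1844, 1668 and 2050.0 (-0.92 ± 0.19), a sign that turned with spike scaling. Aqp8, a water channel, read 97.3, 77.4, 62.0 and 73.8 on the 8-cell arrays and 186, 269.5 and 285 on the blastocyst arrays. Aqp9, which also passes glycerol, measured 356, 313, 263 and 558 in 8-cell embryos and 152, 174 and 184 in blastocysts (-1.03 ± 0.21, positive under spike scaling). Slc12a2, a cotransporter of sodium, potassium and chloride, fell most: it had signals of 2399, 4025, 2926 and 3614 at the 8-cell stage and 399, 282 and 293 in blastocysts, a difference of -3.26 ± 0.27 (SE, adjusted p = 1.85e-08). Aqp3, a water channel, had no probe set naming it alone and is not given. The 2 stages were apart for Atp1b1, Atp1b3, Aqp8, Aqp9 and Slc12a2.

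Actin and the cortical cytoskeleton had the largest share of members called higher among the 42 lists. 32 of 51 measured genes were higher, 3 lower and 16 not called, against 16.6% and 15.5% of all genes, and the median difference was 0.93. The summed signal of the list was 21689 to 25525 in 8-cell arrays and 48296 to 60039.8 in blastocyst arrays. Lcp1, plastin 2, which bundles actin filaments, read 10.4, 17.6, 40.4 and 44.1 on the 8-cell arrays and 1095, 1298 and 1148 on the blastocyst arrays, a difference of 5.03 ± 0.39 (SE, adjusted p = 5.85e-09). Tmsb4x, thymosin beta 4, which holds actin monomers, measured 16.5, 176, 44.6 and 6.2 in 8-cell embryos and 937, 1763 and 679 in blastocysts, with 8-cell array 2 above the other 8-cell arrays. Pls3, a second plastin, had signals of 66.2, 77.3, 35.1 and 44.4 at the 8-cell stage and 498, 381 and 558 in blastocysts. Cnn2 and Tmsb10 were higher by 3.26 and 3.02. Cytoplasmic actin rose less, where the brightest probe set of Actb read 1548, 1991, 1642 and 1525 on the 8-cell arrays and 3315, 4051 and 3355 on the blastocyst arrays (1.09 ± 0.17). A second Actb probe set went the other way, by -1.48. The 3′, middle and 5′ control probe sets of Actb, which lay outside the fit, rose by 1.06, 1.64 and 1.87. The 3 lower members were Cfl2, Rhoa and Tpm3, with differences of -0.89, -0.55 and -0.45, and each of them turned positive when scaled to the spikes. Without blastocyst array 3 the lower count was 1. No overlap between the stages was seen for Lcp1, Tmsb4x, Pls3 and Actb.

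Basement membrane genes rose more often than they fell, and integrins did not. Of 25 matrix genes 12 were higher and 1, Col18a1, was lower (-0.90 ± 0.28, positive under spike scaling and not called without 8-cell array 2, blastocyst array 2 or blastocyst array 3), with a median of 0.53. Col4a1, the main collagen of basement membranes, measured 37.7, 57.3, 69.6 and 23.2 in 8-cell embryos and 307, 299 and 189 in blastocysts, a difference of 2.30 ± 0.37 (SE, adjusted p = 6.34e-05). Sparc, a matrix-binding glycoprotein, had signals of 4.1, 2.7, 29.0 and 2.4 at the 8-cell stage and 63.4, 90.2 and 98.1 in blastocysts. Serpinh1, the collagen chaperone, read 6.6, 14.8, 22.2 and 2 on the 8-cell arrays and 74.1, 96.5 and 145 on the blastocyst arrays. Nid2, a nidogen that links laminin to collagen, and the laminin chain Lama1 were higher by 2.16 ± 0.26 and 1.53 ± 0.29, and Dag1, a laminin receptor, by 1.67 ± 0.17. Col4a2, the partner chain of Col4a1, was not called (0.19 ± 0.19). Of 17 integrin subunits 6 were lower and 1 higher (median -0.41, or -0.45 relative to all genes under spike scaling, where the median itself turned to 0.25). The higher one was Itga6, a laminin receptor subunit, which measured 66.5, 108, 55.9 and 57.2 in 8-cell embryos and 148, 201 and 178 in blastocysts. The lower ones included Itga7 (-1.88 ± 0.27), Itgae (-1.85 ± 0.33) and Itgb4 (-1.36 ± 0.27). Itgb1, the common beta chain, was not called (0.25 ± 0.21). Col4a1, Sparc, Serpinh1 and Itga6 did not overlap between the stages.

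Among 26 primitive endoderm genes 10 were higher and 3 lower, and 9 lay at or below 41.1 on all 7 arrays (median -0.04). The higher ones included receptors and endocytic proteins. Pdgfra, the growth factor receptor that marks primitive endoderm, had signals of 77.0, 102, 142 and 84.3 at the 8-cell stage and 511, 488 and 373 in blastocysts, although its 2 dimmer probe sets were not called. Lrp2, megalin, an endocytic receptor, read 69.8, 112, 65.0 and 58.2 on the 8-cell arrays and 599, 481 and 699.8 on the blastocyst arrays, a difference of 2.81 ± 0.27 (SE, adjusted p = 1.15e-07). Dab2, its clathrin adaptor, measured 151, 332, 464 and 369.7 in 8-cell embryos and 1338, 661 and 943 in blastocysts. The transcription factors did not share one direction. Sox17 had signals of 41.8, 56.2, 42.9 and 26.8 at the 8-cell stage and 147, 206 and 106 in blastocysts and was higher. Gata6 fell from 532, 370.0, 422 and 401 to 212, 231 and 226 (-0.91 ± 0.19, adjusted p = 0.00111), and its sign turned with spike scaling. Gata4 read 253, 30.3, 121 and 66.5 on the 8-cell arrays and 59.7, 102 and 47.5 on the blastocyst arrays and was not called. Cited1, a transcriptional coactivator, had a difference of -2.39. Array by array, 8-cell and blastocyst signals overlapped for Gata4, and were apart for the rest.

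Genes of uptake and the apical surface were higher in 14 of 31 cases and lower in 2 (median 0.42). Tspan8, a tetraspanin of epithelia, measured 11.7, 29.4, 31.2 and 4.3 in 8-cell embryos and 431, 818 and 1352 in blastocysts, a difference of 4.84 ± 0.37 (SE, adjusted p = 4.77e-09). Anxa2 and S100a10, which form one membrane-binding complex, were both higher. Anxa2 had signals of 106, 297, 223 and 78.4 at the 8-cell stage and 1410.2, 1976 and 2115 in blastocysts. S100a10 read 67.2, 144, 119.8 and 84.6 on the 8-cell arrays and 1109, 1249 and 1140.1 on the blastocyst arrays. Slc9a3r1, which ties ezrin to transporters, was higher by 1.90 ± 0.22. Cd9, a tetraspanin, was not called (-0.03 ± 0.20). The 2 members that fell were Tfrc, the transferrin receptor, which measured 1923, 1870.1, 2481 and 1955 in 8-cell embryos and 448, 382 and 391 in blastocysts, and Lrpap1, the chaperone of Lrp2, which differed by -1.57 ± 0.15. The 2 stages were apart for Tspan8, Anxa2, S100a10 and Tfrc.

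**Figure D3:**
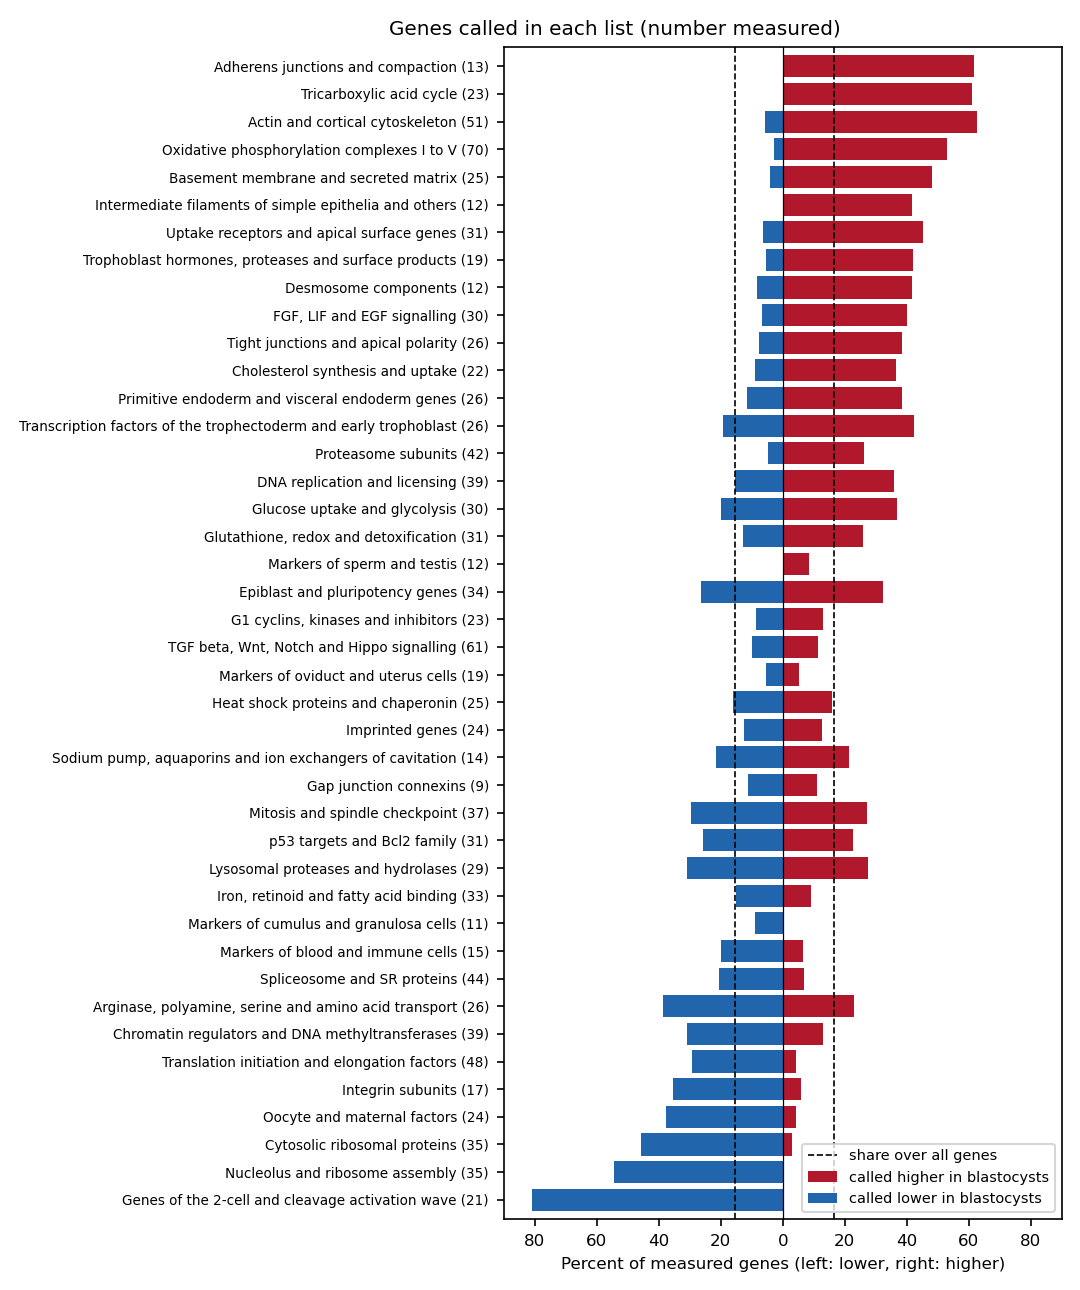
Percent of the measured genes of each of 42 lists (number measured in brackets) called higher in blastocysts (red bars, to the right) or lower (blue bars, to the left), with dashed lines at 16.6% and 15.5%, the shares over all genes. The bars reach furthest right for actin and the cortical cytoskeleton (32 of 51) and furthest left for the genes of the 2-cell and cleavage activation wave (17 of 21), of which only 2 were called lower with arrays scaled to the spikes.

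Pluripotency genes changed in both directions, with 58.8% of them called beside 32.2% of all genes. Of 34, 11 were higher, 9 lower and 14 not called (median 0.18). The falls depended on the scaling: under spike scaling 21 were higher and 1 lower, with a median of 1.07 (0.36 relative to all genes). Sox2, a partner of the core factor Pou5f1, had signals of 58.1, 71.1, 88.4 and 92.3 at the 8-cell stage and 1319, 1178 and 843 in blastocysts, a difference of 3.66 ± 0.24 (SE, adjusted p = 5.64e-10). Nanog read 1178, 1174, 1029 and 901 on the 8-cell arrays and 1789, 1626 and 1762 on the blastocyst arrays, a rise of 0.69 ± 0.19 (adjusted p = 0.00821). Fgf4, the signal of the epiblast, measured 253, 254, 212 and 220.3 in 8-cell embryos and 329.6, 361 and 379.8 in blastocysts (0.58 ± 0.17). Pou5f1, Oct4, had signals of 651, 795, 739 and 717 at the 8-cell stage and 668, 561 and 602 in blastocysts and was not called (-0.25 ± 0.20). Tfcp2l1, a factor of naive pluripotency, rose by 1.36 ± 0.32, and Tdgf1, a Nodal coreceptor, by 1.05 ± 0.28. Other members fell. Fbxo15, an F-box protein used as a stem cell reporter, read 18376, 17129.8, 14087 and 14532 on the 8-cell arrays and 3456, 3624 and 4689 on the blastocyst arrays, a difference of -2.03 ± 0.19 (SE, adjusted p = 7.31e-08). Klf4 measured 1213, 1577, 1205 and 1592 in 8-cell embryos and 549, 453 and 644 in blastocysts. Klf2 had signals of 137, 119, 129 and 45.8 at the 8-cell stage and 44.8, 39.0 and 18.3 in blastocysts. Dppa2, Dppa3 and Dppa4, developmental pluripotency-associated genes, fell, with differences of -1.14, -1.42 and -1.44, the first of which was positive under spike scaling. Dppa5a read 8568, 7773, 7507 and 6119.6 on the 8-cell arrays and 8099.5, 9091 and 7310.1 on the blastocyst arrays and was not called. Of the genes with values by array, Pou5f1 and Dppa5a had overlapping stages and the others did not.

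The lowest median of the 42 lists was that of a list named for the activation wave of the 2-cell and cleavage stages: 17 of 21 were lower and none higher, with a median of -1.14 that came to -0.01 under spike scaling, -0.72 relative to all genes. The list was drawn with results of these arrays known, and its direction is not independent evidence. It holds Klf17, whose 1-cell mean of 4504 was above its later levels. The summed signal was 64346 to 72924 on the 8-cell arrays and 29047 to 32671 on the blastocyst arrays. Guca1a measured 1226, 1172, 1343 and 982 in 8-cell embryos and 282, 167 and 234 in blastocysts, and its mean at the 2-cell stage had been 2878. Bhmt, betaine-homocysteine methyltransferase, had signals of 9484, 9312, 9895 and 7908 at the 8-cell stage and 3751, 1613 and 2719 in blastocysts, with a mean of only 164 at the 2-cell stage. Psat1, an enzyme of serine synthesis, read 6127, 4956, 6494 and 6896 on the 8-cell arrays and 2058, 1297 and 1351 on the blastocyst arrays. Map1lc3b, an autophagy protein, measured 12431, 10203, 10785 and 5954 in 8-cell embryos and 4154, 3961 and 2274 in blastocysts. Pramel6 was not called (-0.27 ± 0.20), nor was Arg2, the mitochondrial arginase (-0.44 ± 0.27). Guca1a, Bhmt, Psat1 and Map1lc3b did not overlap between the stages.

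Oocyte transcripts were lower more often than higher. Of 24 measured, 9 were lower, 1 higher and 14 not called, with a median of -0.46 that turned to 0.20 under spike scaling (-0.51 relative to all genes). The higher count was 3 without 8-cell array 2 and 0 without 8-cell array 3 or 4 or blastocyst array 1. Omt2b had mean signals of 3869.7 in oocytes and 7869 in 2-cell embryos, and then had signals of 278, 196, 121 and 207 at the 8-cell stage and 2.2, 8.5 and 4.7 in blastocysts. Btg4, an adaptor of mRNA deadenylation, read 4966 in oocytes, then 69.1, 42.9, 35.2 and 45.6 in the 8-cell arrays and 11.2, 4.9 and 3.2 in the blastocysts. Zp3, a protein of the zona pellucida, had a mean of 7194 in oocytes and read 120.2, 62.2, 74.2 and 74.4 on the 8-cell arrays and 34.1, 34.0 and 31.4 on the blastocyst arrays. Gdf9, an oocyte growth factor, fell from 211, 175, 155 and 207 to 117, 117 and 91.9 (-0.72 ± 0.15, positive under spike scaling). Dnmt1, the maintenance DNA methyltransferase, was not called at its brightest probe set (0.35 ± 0.16), while a dimmer one was called lower (-1.05). For Omt2b, Btg4, Zp3 and Gdf9 the stages did not overlap.

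Genes of mitochondrial respiration rose more often than they fell. Tricarboxylic acid cycle genes were higher in 14 of 23 cases and lower in none, or in 1 without 8-cell array 4 (median 0.89). Fh1, fumarase, measured 76.9, 65.2, 120.5 and 83.1 in 8-cell embryos and 614, 715 and 752 in blastocysts, a difference of 2.88 ± 0.18 (SE, adjusted p = 4.27e-10). The 4 subunits of succinate dehydrogenase, Sdha, Sdhb, Sdhc and Sdhd, were all higher, by 2.13 ± 0.25, 1.57 ± 0.18, 1.59 ± 0.15 and 1.67 ± 0.19. Suclg1, of succinyl-CoA ligase, had signals of 529.9, 403, 523 and 462 at the 8-cell stage and 1663, 2265 and 1690.3 in blastocysts. Me1, malic enzyme, read 111, 118, 167 and 129.5 on the 8-cell arrays and 382, 366 and 567 on the blastocyst arrays. Mdh2 and Sucla2 were not called (0.34 ± 0.15 and 0.25 ± 0.15). Of 70 genes of complexes I to V, 37 were higher and 2 lower, with a median of 0.59 and a summed signal of 39039 to 51396 in 8-cell arrays against 67106 to 76025 in blastocysts. Ndufa8, of complex I, measured 177, 151, 227 and 246 in 8-cell embryos and 519, 581 and 699.8 in blastocysts. Cox7b, of complex IV, had signals of 494, 405, 299 and 137 at the 8-cell stage and 1148, 1626 and 472 in blastocysts, and its arrays overlapped between the stages. The 2 lower members were Cox6b2 and Cox6a2, isoforms of complex IV that are known from testis and muscle, with differences of -1.10 and -0.81, and 1 was lower without 8-cell array 2 or 4 or blastocyst array 1 or 3. Of the genes with values by array, Cox7b had overlapping stages and the others did not.

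Of 30 genes of glucose uptake and glycolysis 11 were higher and 6 lower (median 0.11). Slc2a3, the glucose transporter Glut3, read 112, 70.9, 62.9 and 89.1 on the 8-cell arrays and 366, 509 and 716 on the blastocyst arrays. Hk2, hexokinase 2, measured 153, 226, 286 and 435 in 8-cell embryos and 1721, 1916 and 1418 in blastocysts, a difference of 2.65 ± 0.31 (SE, adjusted p = 1.57e-06). Pkm, pyruvate kinase, had signals of 63.6, 66.1, 32.2 and 48.4 at the 8-cell stage and 478, 404 and 612 in blastocysts, with the same direction at its other probe set. Tpi1 and Pgk1, further enzymes of the pathway, rose by 2.34 ± 0.21 and 2.33 ± 0.16. Under spike scaling 16 genes of the list were higher and 0 lower, so no fall given here, that of Ldhb included, kept its call. On the deposited scale the lactate dehydrogenase subunits moved apart. Ldha, the subunit of glycolytic tissues, read 18.9, 44.0, 81.7 and 34.6 on the 8-cell arrays and 249.7, 243 and 211 on the blastocyst arrays (2.25 ± 0.37). Ldhb, the maternal subunit, measured 149, 112, 122 and 73.6 in 8-cell embryos and 35.5, 49.8 and 18.5 in blastocysts (-1.48 ± 0.27), after a mean of 5478 in oocytes. Among the lower genes, Pgam1 had signals of 1130.0, 1119, 1154 and 1310.2 at the 8-cell stage and 682, 643 and 504 in blastocysts (-0.95 ± 0.17), and Hk1, whose arrays overlapped, differed by -0.58 ± 0.21, both of them positive under spike scaling. No overlap between the stages was seen for Slc2a3, Hk2, Pkm, Ldha, Ldhb and Pgam1.

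**Figure D4:**
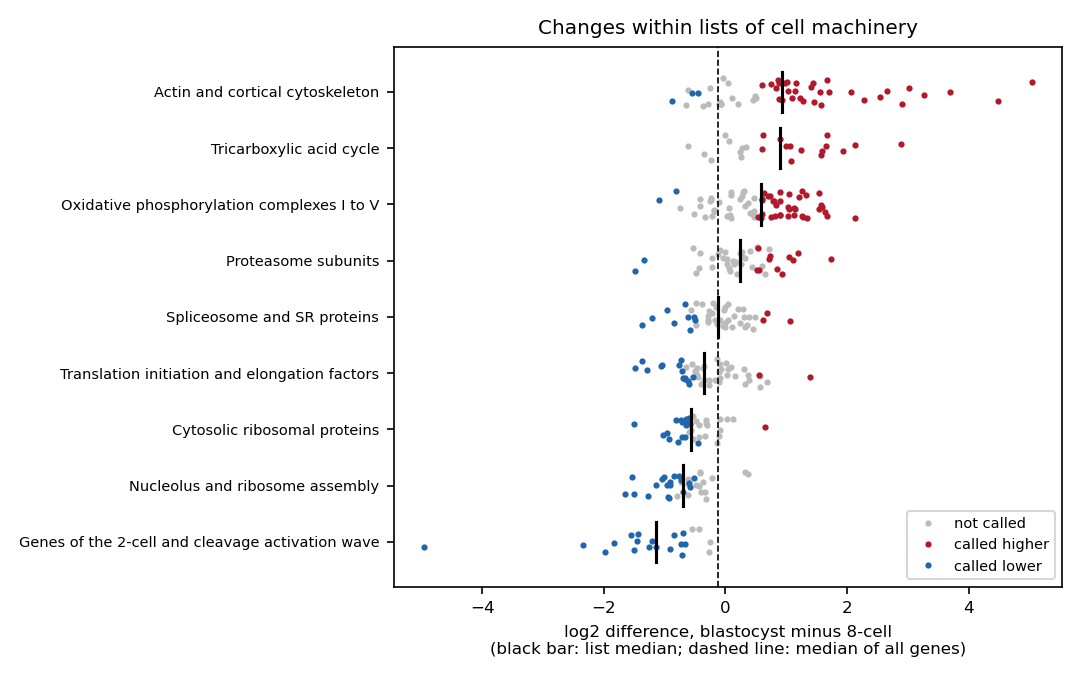
Difference of each gene (x axis, log2, blastocyst minus 8-cell) in 9 lists of cell machinery; red points were called higher, blue lower, grey not called, black bars are list medians and the dashed line is the median of all genes, -0.12. The medians run from 0.93 for the actin list to -1.14 for the cleavage activation list; with arrays scaled to the spikes all 9 medians but that of the cleavage list, at -0.01, were above 0.

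Genes of ribosome assembly were called lower or not called. Of 35 nucleolar and ribosome assembly genes 19 were lower and none higher, with a median of -0.69, which became 0.45 under spike scaling (-0.25 relative to all genes). Taf1d and Rrn3, initiation factors of ribosomal RNA transcription, were lower: Taf1d read 3337, 3456, 4014 and 2593 on the 8-cell arrays and 1384, 1186 and 703 on the blastocyst arrays. Rrn3 measured 636, 571, 546 and 604 in 8-cell embryos and 243, 240.1 and 229 in blastocysts. Ddx21, a nucleolar helicase, had signals of 1039, 881, 1252 and 1016 at the 8-cell stage and 375, 354 and 353 in blastocysts, a difference of -1.50 ± 0.18 (SE, adjusted p = 1.75e-06). Nop58, of the particles that modify ribosomal RNA, read 1419, 1819.8, 1343 and 1294 on the 8-cell arrays and 602, 762 and 603 on the blastocyst arrays (-1.15 ± 0.16, positive under spike scaling). Surf6, a nucleolar matrix protein, and Polr1c, a subunit of RNA polymerases I and III, were lower, with differences of -1.54 and -1.04, the latter positive under spike scaling. Nop56, the partner of Nop58, was not called (-0.42 ± 0.17). Taf1d, Rrn3, Ddx21 and Nop58 did not overlap between the stages.

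Cytosolic ribosomal proteins were lower in 16 of 35 cases and higher in 1, with a median of -0.57 that turned to 0.57 under spike scaling (-0.14 relative to all genes). That count rests on the scaling and on single libraries: it was 4 after quantile normalization, 10 without blastocyst array 1 and 9 without blastocyst array 3. Rps24 measured 25663, 22302, 17252 and 15717 in 8-cell embryos and 10700.4, 10804 and 9186 in blastocysts. Rps7 had signals of 6598, 6133, 6296 and 6857 at the 8-cell stage and 3286, 3509 and 4668 in blastocysts. Their differences were -0.96 ± 0.21 and -0.77 ± 0.19, and both turned positive with spike scaling. The higher one was Rps4l (0.65 ± 0.20), a gene close in sequence to another ribosomal protein gene, and its dimmer probe set was not called (-0.09). Its call was lost without blastocyst array 2. Translation factors were lower in 14 of 48 cases and higher in 2 (median -0.35, or 0.73 under spike scaling). The lower count was 8 after median centring, 9 without 8-cell array 4 and 7 without blastocyst array 2, and the higher count was 6 after median centring and 4 without 8-cell array 2. Eif5, which triggers GTP hydrolysis in the initiation complex, read 1862, 2285, 1869 and 2083 on the 8-cell arrays and 716, 664 and 763 on the blastocyst arrays, a difference of -1.49 ± 0.14 (SE, adjusted p = 8.70e-08). Eif6, which keeps ribosomal subunits apart, measured 1119.7, 1000.0, 999.6 and 1418 in 8-cell embryos and 415, 439.7 and 435 in blastocysts. Eef1a1, the elongation factor, was not called (-0.46 ± 0.17). For Rps24, Rps7, Eif5 and Eif6 the stages did not overlap.

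Splicing factors were called lower in 9 of 44 cases and higher in 3, shares near or below those of all genes, and their median of -0.12 equalled that of all genes to 2 decimals. The lower count was 4 with plain probe sets only and 5 without 8-cell array 1, and the higher count was 1 without blastocyst array 1. Srsf2 had signals of 4416, 4055, 5098 and 3886 at the 8-cell stage and 2358, 2043 and 2282 in blastocysts (-0.96 ± 0.15, positive under spike scaling). Srsf1 gave opposite calls at its probe sets, -1.20 at the brightest and 1.22 and 0.73 at others. Proteasome subunits were higher in 11 of 42 cases and lower in 2 (median 0.25). Psmb1, of the core particle, read 576, 594, 564 and 515 on the 8-cell arrays and 1356, 1297 and 1245 on the blastocyst arrays. Its other probe sets were not called, with differences of 0.56 and -0.30, and the stages overlapped at the first of them. The 2 lower names were Psmb10, an inducible core subunit, and Psmc3ip, a recombination protein that shares only its name with the list. The 2 stages were apart for the signals given of Srsf2 and Psmb1.

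Replication genes rose more often than they fell: of 39, 14 were higher and 6 lower (median 0.26). Without blastocyst array 2 the lower count was 3. Rpa1, which coats single-stranded DNA, measured 146, 171, 153 and 205 in 8-cell embryos and 348, 409.6 and 752 in blastocysts. Rfc2 and Rfc5, of the clamp loader, rose by 1.36 ± 0.21 and 1.36 ± 0.17, and Lig1, the ligase that joins new strands, by 1.29 ± 0.24. Rrm1, of ribonucleotide reductase, had signals of 388, 321, 413 and 377 at the 8-cell stage and 825, 728 and 1373 in blastocysts. In contrast, Cdc6, which loads the replicative helicase, fell from 1715, 1649.7, 2234 and 2519.5 to 678, 698 and 1113 (-1.29 ± 0.18). Mitotic genes were split, 10 of 37 higher and 11 lower, and the higher count was 6 without blastocyst array 1 and 3 without blastocyst array 3. Cdk1, the mitotic kinase, read 3855, 3006, 3212 and 3324 on the 8-cell arrays and 1144, 1016 and 1203 on the blastocyst arrays, a difference of -1.57 ± 0.20 (SE, adjusted p = 3.29e-06). Prc1 and Kif23, of the spindle midzone, fell, with differences of -1.39 and -1.21. Pttg1, securin, measured 772, 605, 568 and 491 in 8-cell embryos and 1020.3, 1109.5 and 1025 in blastocysts, while its dimmer probe set was not called (-0.09). Ccnb2, a mitotic cyclin, was higher by 0.65. Among 23 regulators of the G1 phase 3 were higher and 2 lower, below the shares of all genes (median 0.01). Ccne1, cyclin E1, had signals of 542, 513, 563 and 694 at the 8-cell stage and 208, 219 and 184 in blastocysts. Cdkn1a, the inhibitor p21, read 469.7, 456, 348 and 341 on the 8-cell arrays and 178, 106 and 74.7 on the blastocyst arrays. No overlap between the stages was seen for Rpa1, Rrm1, Cdc6, Cdk1, Pttg1, Ccne1 and Cdkn1a.

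Chromatin regulators and DNA methyltransferases were lower in 12 of 39 cases and higher in 5 (8 after quantile normalization), with a median of -0.15 that turned to 0.85 under spike scaling. Uhrf1, which brings Dnmt1 to newly made DNA, measured 22.1, 23.8, 67.8 and 127 in 8-cell embryos and 330.0, 296 and 547 in blastocysts, a difference of 2.71 ± 0.36 (SE, adjusted p = 8.41e-06). Its mean had been 1078 in oocytes and 1618 in 1-cell embryos. Hdac1, a histone deacetylase, had signals of 1047, 880.1, 931 and 1008 at the 8-cell stage and 327, 344 and 537 in blastocysts. Smarca4, the ATPase Brg1, read 778, 654, 706 and 854 on the 8-cell arrays and 282, 235 and 274 on the blastocyst arrays. Hdac3 went up instead, from 10.4, 26.8, 56.8 and 10.1 to 118, 91.9 and 124. The Polycomb gene Suz12 had a difference of -1.11, positive under spike scaling. Uhrf1, Hdac1, Smarca4 and Hdac3 did not overlap between the stages.

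Signalling genes of the FGF, LIF and EGF pathways were higher in 12 of 30 cases and lower in 2 (median 0.10). Dusp6, a phosphatase that is switched on by the ERK pathway it restrains, measured 3.4, 31.6, 41.5 and 58.8 in 8-cell embryos and 121, 179 and 166 in blastocysts. Erbb3, a receptor of the EGF family, had signals of 235, 287, 227 and 288 at the 8-cell stage and 962, 612 and 954 in blastocysts. Lifr, the LIF receptor, read 21.4, 29.8, 4.7 and 13.9 on the 8-cell arrays and 54.8, 71.0 and 61.1 on the blastocyst arrays. Among its dimmer probe sets, those with differences of 0.85 and 0.80 were called higher and those with 0.10 and -0.35 were not called. Sos1, an activator of Ras, fell from 214, 291, 216 and 329 to 41.7, 43.6 and 30.7 (-2.45 ± 0.39), and Socs3, an inhibitor of the LIF pathway, had a difference of -1.21 ± 0.30. Of 61 genes of the TGF beta, Wnt, Notch and Hippo pathways 48 were not called, 7 were higher and 6 lower, below the shares of all genes, and 21 lay at or below 41.1 on all 7 arrays. Tcf7l1, a repressor in the Wnt pathway, measured 38.5, 32.7, 36.3 and 34.4 in 8-cell embryos and 169, 279 and 157 in blastocysts. Id3, a BMP target and relative of Id2, had a difference of -1.61 ± 0.29. Of 24 imprinted genes 3 were higher and 3 lower, also below the background. Igf2, the paternally expressed growth factor, had signals of 122, 39.3, 31.2 and 76.7 at the 8-cell stage and 364, 463 and 327 in blastocysts, while its dimmer probe set was not called (-0.24). Sgce, a sarcoglycan, had a difference of -1.57 ± 0.34. Peg3 and Mest, both expressed from the paternal copy, rose by 0.85 and 0.92. H19 had no probe set naming it alone. For Dusp6, Erbb3, Lifr, Sos1, Tcf7l1 and Igf2 the stages did not overlap.

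Lysosomal genes changed often but without one direction, 8 of 29 higher and 9 lower (median -0.14). The lower ones included cathepsins, the proteases of the lysosome. Ctsz read 498, 639, 480.2 and 969.5 on the 8-cell arrays and 72.8, 67.0 and 83.2 on the blastocyst arrays. Ctsb measured 1240.5, 1195, 1495 and 1856 in 8-cell embryos and 366, 274 and 326 in blastocysts. Ctsh had signals of 197, 151, 181 and 351 at the 8-cell stage and 26.2, 27.3 and 2.6 in blastocysts. Their differences were -2.89 ± 0.28, -2.12 ± 0.22 and -3.03 ± 0.30. Ctsl and Ctsa had differences of -1.55 and -1.95, and Lamp2, a protein of the lysosomal membrane, of -2.01. Ctsd did not pass the test (0.06 ± 0.15). The higher ones included other hydrolases. Tpp1, a peptidase, read 5.4, 6.1, 48.6 and 5.9 on the 8-cell arrays and 446, 342 and 343 on the blastocyst arrays, with 8-cell array 3 above the others. Hexa, of hexosaminidase, measured 175, 177, 160.2 and 219.8 in 8-cell embryos and 536, 560.2 and 774 in blastocysts. The 2 stages were apart for Ctsz, Ctsb, Ctsh, Tpp1 and Hexa.

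Polyamine and amino acid genes fell more often than they rose, 10 of 26 against 6 (median -0.32, or 0.70 under spike scaling). Odc1, which makes putrescine from the ornithine that Arg1 releases, had signals of 4819, 5267, 5798 and 5808 at the 8-cell stage and 912, 1103 and 1505 in blastocysts, a difference of -2.22 ± 0.19 (SE, adjusted p = 3.13e-08). Sat1, which acetylates polyamines for export, read 5584, 6045, 5691 and 5437 on the 8-cell arrays and 1483, 1545 and 1948 on the blastocyst arrays, and Azin1, which protects Odc1, had a difference of -1.27 ± 0.20. Asns, asparagine synthetase, measured 307, 315, 359 and 196 in 8-cell embryos and 923, 1017 and 1047 in blastocysts, and the amino acid transporters Slc7a3, Slc38a2 and Slc7a7 rose by 1.58, 1.30 and 1.22. Of 22 cholesterol and fatty acid desaturation genes 8 were higher and 2 lower, or 1 without blastocyst array 1 (median 0.19). Scd1, a fatty acid desaturase, had signals of 156, 157, 167 and 128 at the 8-cell stage and 873, 801 and 1067 in blastocysts. Idi1, an early enzyme of sterol synthesis, rose by 2.15 ± 0.26, while Fdft1, squalene synthase, fell from 639.6, 621, 721 and 809 to 191, 219 and 290.2. Of 33 iron, retinoid and fatty acid binding genes 3 were higher and 5 lower, near or below the shares of all genes, and 20 were at or below 41.1 on all 7 arrays. Acsl4, which activates arachidonic acid, read 223, 249, 236 and 435 on the 8-cell arrays and 12.7, 8.4 and 22.8 on the blastocyst arrays. No overlap between the stages was seen for Odc1, Sat1, Asns, Scd1, Fdft1 and Acsl4.

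Redox genes were higher in 8 of 31 cases and lower in 4 (median 0.20). Txn1, thioredoxin, measured 1735, 1788, 2157 and 1260.4 in 8-cell embryos and 6858, 7112 and 6662 in blastocysts, a difference of 2.01 ± 0.19 (SE, adjusted p = 1.15e-07). Prdx2, a peroxiredoxin, had signals of 371, 375, 272 and 219.7 at the 8-cell stage and 1652, 1988 and 1563 in blastocysts, below its oocyte mean of 5428. Gsta4 and Gstp1, glutathione transferases, rose by 4.08 ± 0.36 and 2.19 ± 0.19. Mt1, a metallothionein, read 1508, 1581, 1406 and 770.3 on the 8-cell arrays and 674, 678 and 324 on the blastocyst arrays, and its relative Mt2 had a difference of -0.65 ± 0.17, positive under spike scaling. Of 25 heat shock genes 4 were higher and 4 lower (16% each, median 0.10), which is near the 16.6% and 15.5% of all genes. The counts were 7 and 2 after quantile normalization, and 2 were lower without blastocyst array 3. Hsp90b1 and Hspa5, chaperones of the endoplasmic reticulum, were higher, the first from 118, 457, 299 and 193 to 1137, 1501 and 1923. The inducible Hspa1a measured 239.9, 579, 142 and 310.1 in 8-cell embryos and 69.8, 161 and 59.3 in blastocysts, with 8-cell array 2 the highest and the stages overlapping. Its near-identical copy Hspa1b had a difference of -1.45 ± 0.39, and their signals cannot be fully told apart. Among 31 p53 targets and Bcl2 relatives 7 were higher (4 without blastocyst array 1) and 8 lower. Bid, which promotes cell death, had signals of 52.6, 46.8, 44.5 and 39.9 at the 8-cell stage and 11.1, 4.6 and 10.7 in blastocysts. Bcl2l10, an oocyte member of the family, read 126, 163, 81.7 and 83.9 on the 8-cell arrays and 23.4, 21.4 and 28.6 on the blastocyst arrays. Gadd45g, a stress-response gene, measured 49.7, 35.0, 34.6 and 26.7 in 8-cell embryos and 129.6, 253 and 154 in blastocysts. Array by array, 8-cell and blastocyst signals overlapped for Hspa1a, and were apart for the rest.

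The stage labels and the markers of other cells were checked together. Of the 5 trophectoderm markers Gata3, Krt8, Krt18 and Dsp were higher and Cdx2 was not called. Of the 5 primitive endoderm markers Dab2, Pdgfra and Lama1 were higher, Gata6 lower and Gata4 not called. Of the 5 epiblast markers Nanog, Sox2 and Fgf4 were higher, and Pou5f1 and Dppa5a were not called. Of the 5 oocyte markers Zp1, Zp2, Zp3 and Gdf9 were lower, all but Zp3 turning positive under spike scaling, and Bmp15 was not called. Among markers of cells that could come with an embryo, 0 of 11 cumulus and granulosa genes were higher and 1 lower (Kitl, the Kit ligand), or 2 without 8-cell array 4 or blastocyst array 1 and 0 without blastocyst array 3, with summed signals of 221 to 386 in 8-cell and 141 to 275 in blastocyst arrays. Blood and immune markers gave 1 of 15 higher (Laptm5) and 3 lower (Hba-a1, Adgre1 and Cd14), or 1 without 8-cell array 2, blastocyst array 2 or blastocyst array 3, with summed signals of 522 to 1126 and 557 to 663. Sperm and testis markers gave 1 of 12 higher (Odf2) and none lower, or 1 lower without 8-cell array 4, with summed signals of 366 to 559 and 331 to 462. Of the oviduct and uterus list 1 was higher, Wfdc2, an epithelial protease inhibitor, which had signals of 8.5, 53.5, 9.8 and 16.8 at the 8-cell stage and 213, 190.5 and 196 in blastocysts. In that list 1 was lower (Pgr, the progesterone receptor), or 3 without 8-cell array 2, 2 without 8-cell array 3 and 6 without 8-cell array 4, and the higher count was 2 without 8-cell array 1. The defining oviduct marker Ovgp1 was between 24.4 and 49.1 on the blastocyst arrays. For Wfdc2 the stages did not overlap.

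The earlier stages were used to describe whether a level had been seen before. Of the 1372 genes higher in blastocysts, 618 had all 3 blastocyst arrays above all 14 earlier arrays, and 107 were at or below 41.1 on every earlier array. Over all 8251 genes these counts were 709 and 1774. Being called higher favours the first count, and the second was a smaller share of the higher genes than of all genes. The median log2 level of the 1372 genes was 7.31 in oocytes, 6.98 in 1-cell, 6.89 in 2-cell and 6.70 in 8-cell embryos and 8.01 in blastocysts. Over all genes the medians were 6.10, 5.96, 6.26, 6.07 and 6.13 in the same order. The 1372 genes had been called for 8-cell signals below the blastocyst ones, which by itself favours a low 8-cell median. BC053393 and Slc15a2 were at or below 16.1 and 23.1 on every earlier array. Pdzk1, by contrast, had a mean of 1082 in oocytes and 543 in 1-cell embryos before its low at the 8-cell stage, and Uhrf1 and Prdx2 also had oocyte means above their blastocyst means. Of the 1281 genes lower in blastocysts, 341 had all 4 8-cell arrays above all others, 339 had all 3 blastocyst arrays below all 14 earlier ones, and 337 were at or below 41.1 on all 3 blastocyst arrays. Over all 8251 genes these counts were 414, 419 and 3071. Being called lower favours these counts, yet the last was a smaller share of the lower genes than of all genes. Their median log2 level was 7.05 in oocytes, 6.96 in 1-cell, 7.93 in 2-cell and 8.00 in 8-cell embryos and 6.86 in blastocysts. The choice of genes called lower favours a high 8-cell median in the same way. Bex6 and Fbxo15 rose between the 1-cell and 2-cell means, from 49.8 to 2041 and from 324 to 6005, whereas Klf17 and Omt2b came down from 1-cell means of 4504 and 8330.2. These levels are a description, with no test.

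**Figure D5:**
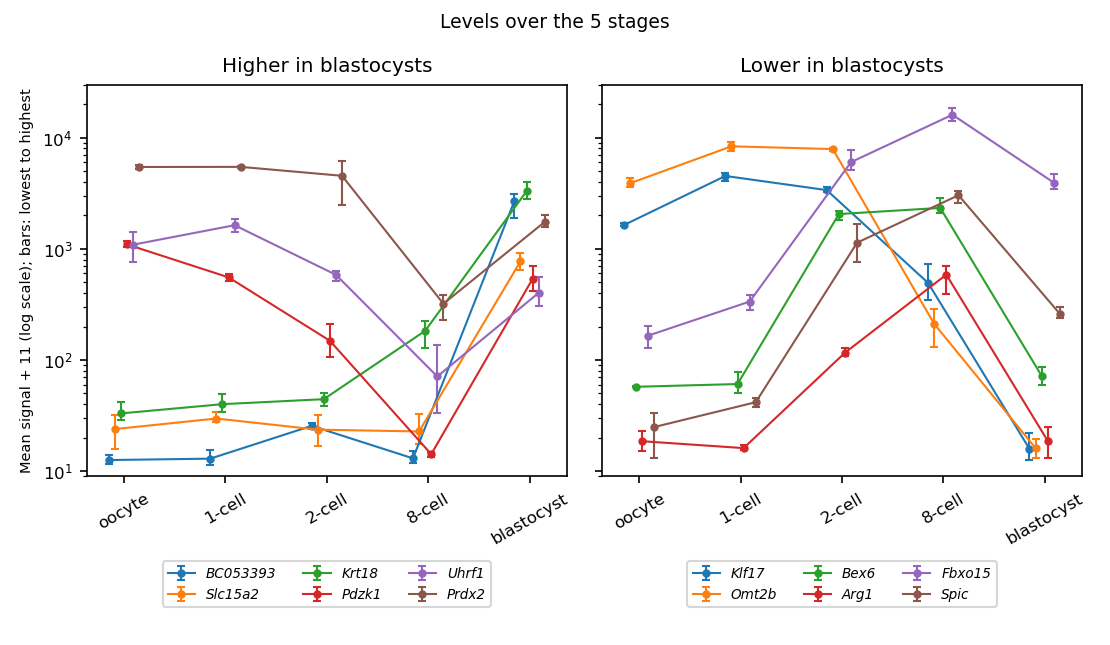
Mean signal plus 11 (y axis, log scale) of 6 genes higher and 6 genes lower in blastocysts at each of the 5 stages, with bars from the lowest to the highest array. BC053393 and Slc15a2 appear at the blastocyst stage, Pdzk1, Uhrf1 and Prdx2 return from an 8-cell low, Klf17 and Omt2b decline from the 1-cell stage, and Arg1, Fbxo15 and Spic have their highest mean at the 8-cell stage.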

How the data were processed

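RNA of oocytes, 1-cell, 2-cell and 8-cell embryos and blastocysts was measured on 17 arrays, 1 per sample, grouped by their titles. The deposited values are signal intensities on a linear scale for 12488 probe sets, scaled per array by the authors, judging from trimmed means of 149.4 to 149.9. Software and scaling target are not given in the sources used here. Array medians were 36.9 to 46.8 for 8-cell embryos and 34.0 to 44.1 for blastocysts, and the number of arrays limits the precision.

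After 66 control probe sets were left out, limma 3.58.1 (R 4.3.3) fitted a mean per stage to log2(signal + 11) of the 17 arrays with lmFit, and eBayes moderated the variances with an intensity trend (12 residual degrees of freedom). No filter on dim values was used. Blastocysts were contrasted with 8-cell embryos, p-values were adjusted by Benjamini-Hochberg over 12422 probe sets, and an adjusted p below 0.05 was a call. An annotation table gave 10833 probe sets 1 gene, 396 several and 1193 none. For a gene with several probe sets (2073 genes) the brightest mean over 17 arrays was used. Symbols were brought up to date through RefSeq, which also gave the promoters. The fit was tested on simulated data.

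The comparison, the 42 gene lists and the tests were chosen with earlier results of these data known. Genes were named by rule: the 15 largest rises and falls without overlap between stages, up to 6 higher, 6 lower and the 2 brightest uncalled members of each list, and preset landmarks and markers. Lists built from name patterns take in like-named genes, such as Psmc3ip. Alternatives covered scaling, offset, filters, model, replicate block, probe set choice and single arrays left out.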

Additional observations from a re-analysis of the deposited data

Results flagged for a closer look

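For each of the 260 genes named in the text, the 4 8-cell arrays were searched for 1 array far from the other 3 on the log2(signal + 11) scale, by Dixon's ratio of the gap to the whole range at its 95% critical value. Chance alone marks about 1 in 20 such groups, and 19 genes were marked. Some of the genes, Ltf and Krt19 included, were named after their values had been seen. The count is therefore not a test against that rate. The 3 blastocyst arrays are too few for this search. 8-cell array 1 lay above the rest for Cldn2 at 12.7 (the others 8.9 to 9.3). 8-cell array 2 lay above the rest for Krt19 at 38.1 (the others 1.7 to 4), Ltf at 828 (the others 6 to 11.4) and Ndrg1 at 236 (the others 42.1 to 56.6). 8-cell array 3 lay above the rest for Fabp3 at 241 (the others 135 to 143), Sparc at 29.0 (the others 2.4 to 4.1), Sucla2 at 1404 (the others 1146 to 1168), Tfrc at 2481 (the others 1870.1 to 1955) and Tpp1 at 48.6 (the others 5.4 to 6.1). 8-cell array 4 lay above the rest for Acsl4 at 435 (the others 223 to 249). 8-cell array 1 lay below the rest for Cnn2 at 5.2 (the others 21.6 to 25.4). 8-cell array 3 lay below the rest for Cldn6 at 28.3 (the others 52.5 to 58.9) and Zp1 at 41.5 (the others 64.9 to 69.4). 8-cell array 4 lay below the rest for Klf2 at 45.8 (the others 119 to 137), Lgals3 at 8.6 (the others 50 to 53.5), Mt1 at 770.3 (the others 1406 to 1581), Psmb10 at 52.7 (the others 131 to 148), Tfap2a at 8 (the others 44.7 to 58.1) and Tmsb10 at 38.1 (the others 92.8 to 104). Of these genes Ltf alone belongs to the oviduct list, and no cause was tested.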

How the results depend on the processing

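Scaling to the 9 spikes was the only alternative that moved the counts of called genes or probe sets by more than 1.5 times: 4935 probe sets and 3715 genes were then called higher and 188 and 131 lower, and 96.6% of the called genes were higher, against 51.7% on the deposited scale. It also moved 69 of the 84 list counts, ended 75 of the 230 calls among the 260 named genes and added 15. Neither scale can be read as RNA per embryo. The deposited scale is relative within an array, and the spikes are hybridisation controls. The RNA had been amplified by 2 rounds, and the number of embryos pooled was not given. Among genes called on either scale, the differences that took the opposite sign were Aqp9 0.10, Atp1b3 0.27, Cd9 1.15, Cdh1 1.05, Cfl2 0.19, Cldn2 0.058, Col18a1 0.12, Crb3 0.22, Dppa2 0.052, Gata6 0.24, Gdf9 0.38, Gja5 0.19, Hk1 0.59, Mt2 0.54, Nop56 0.76, Nop58 0.032, Pgam1 0.23, Polr1c 0.13, Pramel6 0.92, Rhoa 0.63, Rps24 0.23, Rps7 0.41, Srsf2 0.23, Suz12 0.065, Tead4 0.41, Tfap2c 0.56, Tjp1 0.93, Tpm3 0.69, Wwtr1 0.48, Zp1 0.17 and Zp2 0.48, and 12 further named genes that were called on neither scale also changed sign. With plain probe sets only the sign turned for Igf2 -0.24, Laptm5 -0.11, Pttg1 -0.095 and Rps4l -0.090, and with all probe sets of a gene averaged for Actb -0.20 and Srsf1 0.12.

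Under the other alternatives (quantile normalization, median centring, an offset of 1 or of 41.1, filters at the median or the 75th percentile, a fit of the 7 arrays alone, array weights, no intensity trend, a replicate block, plain probe sets, probe set means) 1088 to 1424 genes were called higher and 1003 to 1293 lower. Leaving out 1 of the 7 arrays at a time gave 1175 to 1320 genes higher and 951 to 1315 lower, and 1508 to 1702 and 1301 to 1906 probe sets. These left-out fits ended the call of 6 to 18 named genes each and turned the sign of no called gene. The 75th percentile filter tested 3773 genes, and the higher counts then fell with the number tested: trophoblast products 5, basement membrane 6, primitive endoderm 5, lysosome 5, FGF and LIF 7, with 2 lower integrins and 3 lower glycolysis genes.

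Same-numbered 8-cell and blastocyst arrays deviated together by correlations of 0.087, 0.082 and 0.056, and 8-cell array 4 correlated best with blastocyst array 3 (0.276). These values gave no ground for pairing arrays by number. Whether any arrays shared a collection or a processing run cannot be told from them. With the replicate block 1311 genes were higher and 1214 lower (1693 and 1712 probe sets). Dim probe sets limit the reading: 2314 genes lay at or below the median of all values on all 7 arrays, the table holds no detection calls, and 7 arrays limit the precision.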
